A study of Mus musculus with 6 samples.

Results

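Conventional dendritic cells (DCs), which take up antigen and present it to T cells, fall into the lineages cDC1 and cDC2. The cDC2 lineage, also called the CD11b lineage, carries the surface proteins SIRPA and CD11b and presents antigen on MHC class II mainly to CD4+ T cells, while the cDC1 lineage is marked by CD8A in lymphoid organs and cross-presents antigen to CD8+ T cells. In mouse spleen a Notch2-dependent subset of cDC2 carries CD4 and ESAM. The lectins MGL1 and MGL2, encoded by Clec10a and Mgl2, are known from cDC2 of the skin and of skin-draining lymph nodes and from macrophages. The genes described here are 8 markers of the cDC2 lineage, chosen by symbol, namely Sirpa, Itgam, Cd4, Esam, Cd209a, Clec10a, Mgl2 and Lyz2. All 8 had a probe set named for that gene alone, out of 12394 genes measured. All but Lyz2 encode surface proteins, and Lyz2 encodes a secreted lysozyme of myeloid cells.

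BALB/c mice, an inbred strain, gave spleens and lymph nodes from which CD11c-positive conventional DCs were sorted by flow cytometry, and their total RNA was measured on 6 Affymetrix arrays. There were 3 arrays labelled spleen and 3 labelled lymph node, with no treatment and no genetic change named, and the age of the mice and the kind of lymph node are not given in the sources used here. Nothing in the labels ties an array to its own animal or pool, so the p-values cover the array-to-array spread alone, and that spread may be technical. Levels are given as the deposited intensity, or as its log2 where stated, and each difference is the mean log2 level of the arrays labelled spleen minus that of the arrays labelled lymph node.

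Some genes went against the organ labels. Ccl22, a chemokine gene of mature DCs, and Ccr7, which guides migrating DCs into lymph nodes, were higher in the arrays labelled spleen, by 4.97 ± 0.18 and 1.47 ± 0.31 on the log2 scale (SE; limma adjusted p = 7.92e-05 and 0.0496). Of 9 measured markers of migratory and mature DCs 6 passed the test there and 0 passed in the other direction, with a median log2 difference of 1.47. Others were the inhibitory glycoprotein gene Cd200 (2.52 ± 0.26), Fscn1 for the actin bundler fascin (1.82 ± 0.22, by its brightest probe set) and Marcksl1 (1.47 ± 0.19). For this reason the groups are called by their labels throughout, and no direction below is tied to an organ beyond the label. Array medians lay between 39.4 and 41.3 units. The bacterial poly-A control probe sets, which measure RNA added during processing, had mean log2 levels of 7.71 to 8.29 in the arrays labelled spleen and 6.82 to 7.31 in the arrays labelled lymph node.

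Of the 8 cDC2 genes, Clec10a was higher and Sirpa lower in the arrays labelled spleen at a limma adjusted p under 0.05, and the other 6 did not pass. Over all genes 3.4% passed, 2.03% towards spleen and 1.37% towards lymph node. An unadjusted limma p under 0.05 was reached by 6 of the 8 genes. Over all 12394 genes 1152 higher and 1208 lower reached it, the baseline for such counts below. The arrays of the groups did not overlap for 4 of the 8 genes, Sirpa, Esam, Cd209a and Clec10a, and for 24.5% of all genes. The median difference was -0.22 over the 8 genes and -0.0053 over all genes. With the poly-A control level as a covariate 0 of the 8 passed. At an unadjusted limma p under 0.05 this left 1 of the 8, and 380 higher and 343 lower over all genes. The part of the control level in these differences cannot be told apart from that of the labels. Differences were negative for Sirpa, Cd209a, Esam and Cd4, positive for Clec10a, Mgl2 and Lyz2, and close to 0 for Itgam.

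**Figure D1:**
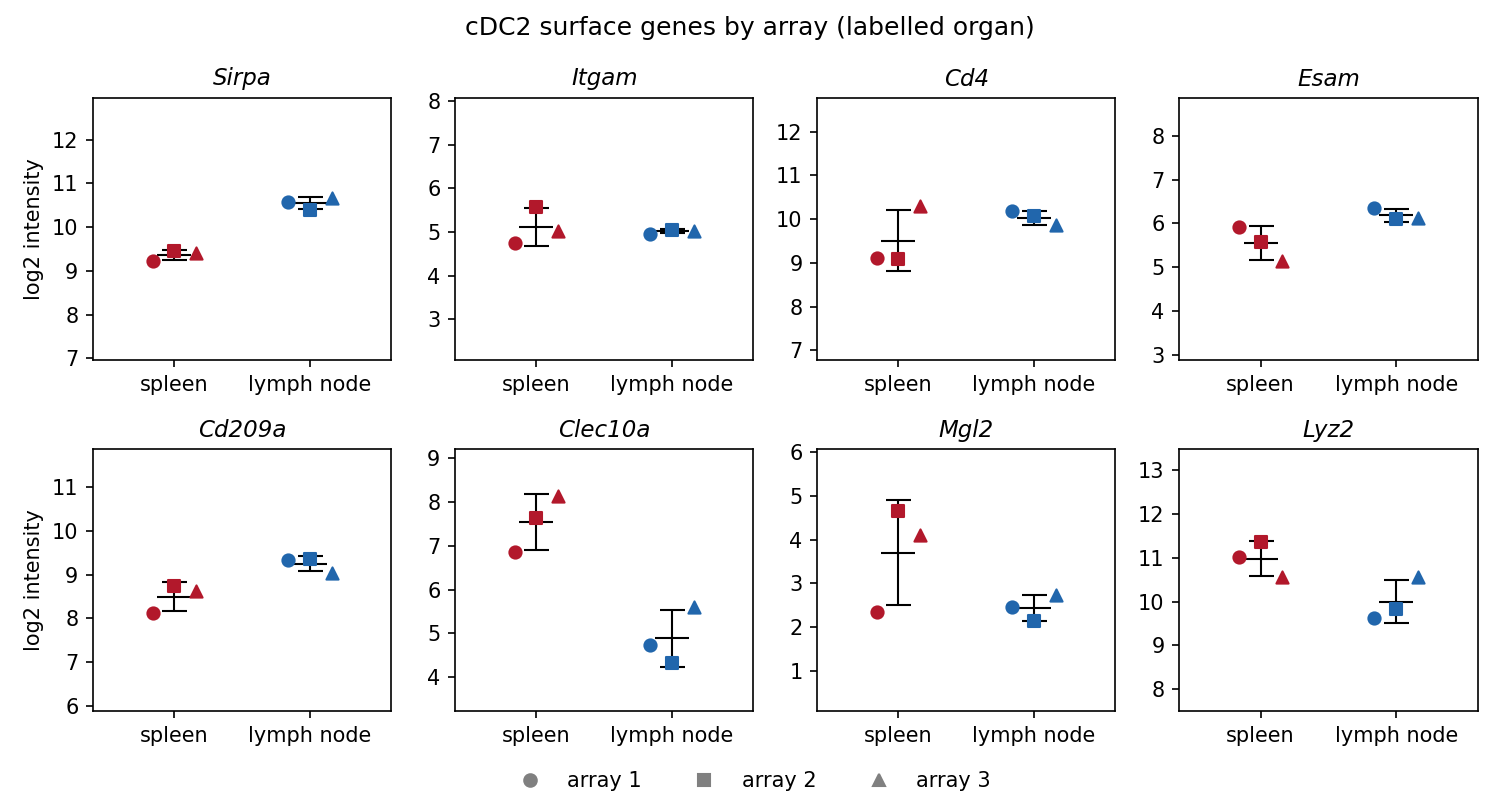
The y axis of each panel is the log2 intensity of 1 gene on 1 array and spans 6 log2 units, points are arrays, and black bars are the mean ± SD of 3 arrays labelled spleen (red, left) or lymph node (blue, right). Sirpa, Esam, Cd209a and Clec10a show groups that do not overlap, and array 3 labelled spleen stands apart from the other spleen arrays for Cd4.

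Sirpa encodes the inhibitory receptor that binds CD47 and is the surface marker most often used to define cDC2. It had intensities of 598, 696.7 and 676.1 in the arrays labelled spleen and 1537.9, 1353.1 and 1621.7 in the arrays labelled lymph node. All spleen arrays were below all lymph node arrays, and each group was tight. The log2 level was 9.36 ± 0.12 in the arrays labelled spleen against 10.55 ± 0.13 in the arrays labelled lymph node (SD, n = 3 each), a difference of -1.19 ± 0.16 (SE, 95% interval -1.56 to -0.83; limma adjusted p = 0.0121). This is a 2.29-fold lower level in the arrays labelled spleen.

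Sirpa was the only one of the 8 genes with 3 probe sets, and all of them gave the same direction. The second probe set read 444, 565.8 and 551 in the arrays labelled spleen and 1525.9, 1407.4 and 1347.6 in the arrays labelled lymph node, a log2 difference of -1.46 ± 0.17 (SE; limma adjusted p = 0.00931 over probe sets). The third was dimmer and differed most, with 205.4, 197.8 and 215 in the arrays labelled spleen against 702.8, 713.2 and 634.7 in the arrays labelled lymph node (-1.73 ± 0.15, SE; limma adjusted p = 0.00471 over probe sets). The probe set with the highest mean, used for the gene by rule, therefore gave the smallest of the 3 differences. The call on Sirpa was lost without lymph node array 1 (difference -1.18, adjusted p = 0.0814) or lymph node array 2 (-1.27, adjusted p = 0.0617).

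Of 8 measured genes for its ligand and signalling partners 0 passed in either direction, and at an unadjusted limma p under 0.05 there were 0 higher and 1 lower, with a median difference of -0.023. The gene was Ptpn6, which encodes the phosphatase SHP-1 that SIRPA recruits, at -0.98 ± 0.25 (SE; adjusted p = 0.0802). Fyb, an adaptor downstream of SIRPA in macrophages, differed by -0.28 ± 0.18 (adjusted p = 0.477). Ptpn6 had log2 levels of 8.19, 8.73 and 9.09 in the arrays labelled spleen and 9.80, 9.75 and 9.40 in the arrays labelled lymph node, without overlap.

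The genes whose pattern over the 6 arrays lay closest to that of Sirpa, by the root mean square distance of centred log2 levels among 6197 genes above the median level, were Icosl, Gm20362 and Rasa4, at distances of 0.126, 0.133 and 0.134 log2 units. Icosl encodes the ligand of the T cell costimulator ICOS and differed by -1.07 ± 0.16 (SE; limma adjusted p = 0.0170). The comparison of patterns uses the same arrays as the test, and the likeness rests largely on the difference between the groups.

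Conventional DC markers had 0 of 8 members higher and 1 lower, Itgax, in the arrays labelled spleen, with a median of -0.55, and their summed intensity was 16814 to 25988 in the arrays labelled spleen and 28173 to 31380 in the arrays labelled lymph node. For cDC1 markers 0 of 9 members passed in either direction (6 higher and 1 lower at an unadjusted limma p under 0.05), with a median of 1.18 and summed intensities of 3120 to 6754 in the arrays labelled spleen against 1158 to 2820 in the arrays labelled lymph node. Among them Cd8a, which marks cDC1 in lymphoid organs, differed by 1.57 ± 0.40 (SE; limma adjusted p = 0.0821) and Batf3, a transcription factor that cDC1 need, by -1.05 ± 0.28 (adjusted p = 0.0920). Of the 9 differences 8 were positive and 1, that of Batf3, was negative. Cd8b1, the CD8 beta chain gene counted among the T cell markers below, was also higher, by 3.51 ± 0.73 (adjusted p = 0.0461). Cd8a is therefore not read as a cDC1 signal alone. In sorted but mixed cells, fewer cells of a type and less RNA per cell cannot be told apart. Summed monocyte and neutrophil markers, given below with Lyz2, were also lower in the arrays labelled spleen, while those of macrophages overlapped. The part of any of these markers in the Sirpa difference was not tested.

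**Figure D2:**
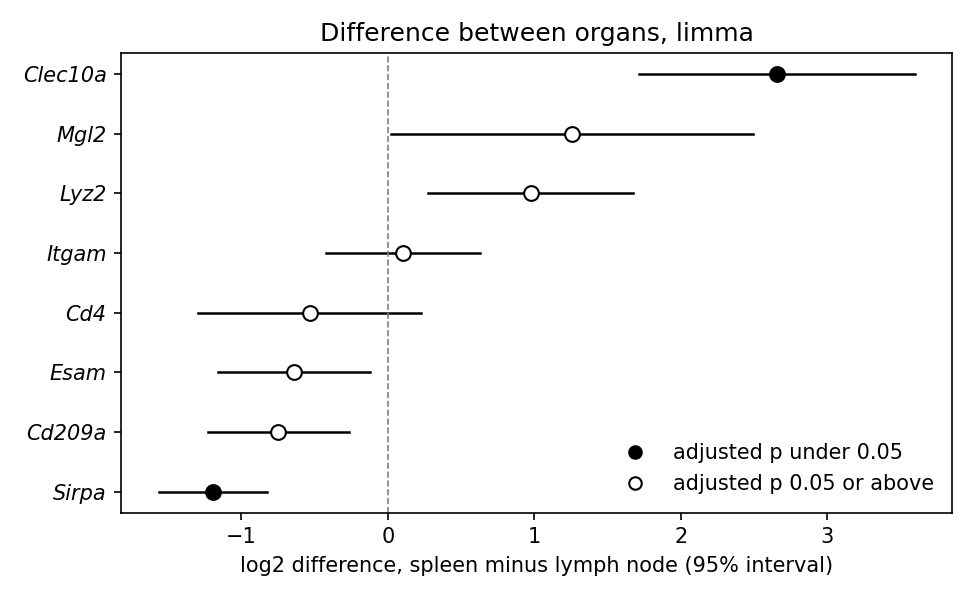
The x axis is the log2 difference in intensity, spleen minus lymph node as labelled, with its 95% confidence interval from limma (3 arrays per group), and each line is 1 gene. Clec10a at 2.66 and Sirpa at -1.19, drawn as filled points, have an adjusted p under 0.05, and the other 6 are open.

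Itgam, the integrin alpha chain CD11b that gives the lineage its name, did not differ measurably. Its intensities were 26.7, 47.7 and 32.7 in the arrays labelled spleen and 31.2, 33.2 and 32.5 in the arrays labelled lymph node. The lymph node arrays lay close together, and the spleen arrays spread to both sides of them. The difference was 0.10 ± 0.23 (SE; limma adjusted p = 0.866), and its 95% interval of -0.42 to 0.63 leaves room for a change of that size in either direction. Without spleen array 2 the sign turned (-0.13, adjusted p = 0.764). The test of Itgam rests on a single probe set with a low signal. Apart from spleen array 2, its levels lay below the array medians of 39.4 to 41.3 units.

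CD11b pairs with the beta chain CD18, encoded by Itgb2, which it shares with CD11c (Itgax). Of 8 measured partners, sister chains and ligands of CD11b, in the arrays labelled spleen 1 was lower and 0 were higher, with a median of -0.34. That gene was Itgax, at -0.97 ± 0.17 (SE; limma adjusted p = 0.0310). Itgb2 had log2 levels of 10.27, 10.41 and 10.28 in the arrays labelled spleen and 11.02, 11.09 and 10.85 in the arrays labelled lymph node. Its groups did not overlap, but the difference of -0.66 ± 0.15 did not pass (adjusted p = 0.0616), as stands also for Tln1, the integrin activator talin (-0.62 ± 0.17).

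Cd4, the MHC class II coreceptor carried by splenic cDC2 as well as by T cells and mouse plasmacytoid DCs, was uneven between the arrays labelled spleen. It had 554.1, 544.9 and 1268.1 units in the arrays labelled spleen and 1160.9, 1069.8 and 932.8 in the arrays labelled lymph node. Spleen array 3 lay above every lymph node array and the other spleen arrays lay below them. The second Cd4 probe set showed the same split, with 131.8, 141.6 and 359.4 in the arrays labelled spleen against 351.7, 334.7 and 290.9 in the arrays labelled lymph node. The difference by the brighter probe set was -0.53 ± 0.33 (SE, 95% interval -1.29 to 0.23; limma adjusted p = 0.442). Without spleen array 3 it was -0.93 and passed (adjusted p = 0.0395).

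Plasmacytoid DC markers were highest in the same array. Their summed intensity over 9 measured markers was 1942.5, 1577.1 and 5279.8 in the arrays labelled spleen and 556.4, 559.6 and 1210.3 in the arrays labelled lymph node, and 3 of the 9 were higher and 0 lower in the arrays labelled spleen (median 1.94). They were Blnk, an adaptor of B cells and plasmacytoid DCs (3.60 ± 0.47), Klk1 (4.06 ± 0.76) and Ccr9, a chemokine receptor gene (2.79 ± 0.54).

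T cell markers summed to 1301.4, 693.9 and 1265.8 in the arrays labelled spleen and 480.4, 437.3 and 706.2 in the arrays labelled lymph node. Spleen arrays 1 and 3 were thus both high. Of 11 measured T cell markers 2 were higher, Cd28 and Cd8b1, and 0 lower (median 0.82). The CD8 beta chain gene Cd8b1 had log2 levels of 6.85, 6.41 and 8.65 in the arrays labelled spleen and 2.87, 3.32 and 5.21 in the arrays labelled lymph node, highest in spleen array 3. The costimulatory receptor gene Cd28 was about as high in spleen array 1 as in spleen array 3, at 8.29, 6.76 and 8.26 in the arrays labelled spleen and 3.19, 2.32 and 5.58 in the arrays labelled lymph node. The T cell receptor complex gene Cd3e was highest in spleen array 1, with log2 levels of 7.10, 3.86 and 5.29 in the arrays labelled spleen and 4.22, 3.86 and 5.36 in the arrays labelled lymph node. The part of plasmacytoid DC or T cell RNA in the Cd4 levels was not tested.

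**Figure D3:**
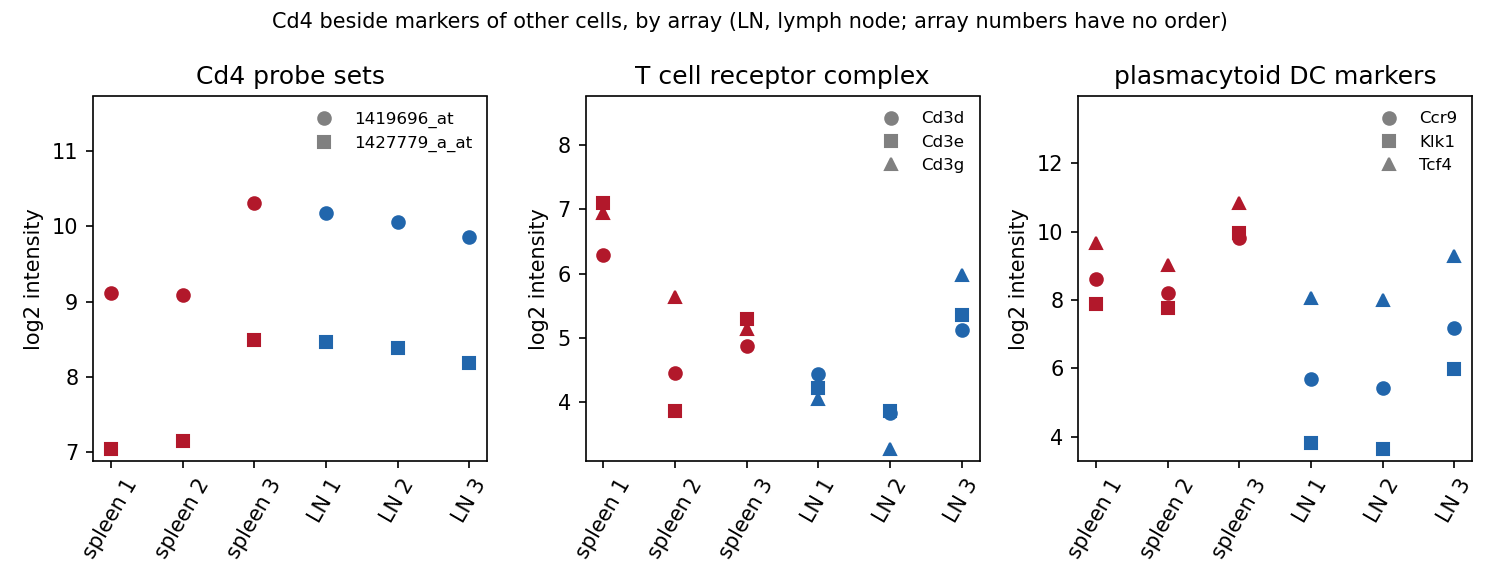
Each panel gives the log2 intensity on the y axis for the 3 arrays labelled spleen (red) and the 3 labelled lymph node (blue) on the x axis, and each symbol is a probe set of Cd4 or a marker gene. Both Cd4 probe sets and the 3 plasmacytoid DC genes are highest among spleen arrays in array 3, while Cd3d, Cd3e and Cd3g are highest in spleen array 1.

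Of 6 measured genes that work with CD4, 0 passed after adjustment in either direction. At an unadjusted limma p under 0.05 there were 6 lower and 0 higher, against 1208 lower and 1152 higher of all 12394 genes. The median was -0.69. The list includes the MHC class II chain genes H2-Aa, H2-Ab1 and H2-Eb1, which the conventional DC list also holds. Zbtb7b, the transcription factor ThPOK that keeps Cd4 on in T cells, differed by -0.81 ± 0.18 (SE; limma adjusted p = 0.0564), and Il16, a cytokine that binds CD4, by -0.98 ± 0.23 (adjusted p = 0.0640).

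Esam encodes an adhesion molecule of the junctional adhesion family that marks the Notch2-dependent CD4+ cDC2 of the spleen. It had 60.8, 47.7 and 35.3 units in the arrays labelled spleen and 81.9, 68.2 and 69.3 in the arrays labelled lymph node. All spleen arrays were lower, by a difference of -0.64 ± 0.22 (SE, 95% interval -1.16 to -0.12), which did not pass over all genes (limma adjusted p = 0.173). Within the arrays labelled spleen Esam was lowest in array 3, where Cd4 was highest.

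Genes of the Notch2 and lymphotoxin axis tied to this subset, among them targets and ligands, were split. Of 10 measured genes 1 was lower, Dtx1, and 1 higher, Dll1, in the arrays labelled spleen, with a median of -0.076. Notch2 itself differed by 0.26 ± 0.15 (SE; limma adjusted p = 0.416) and the lymphotoxin receptor gene Ltbr by -0.47 ± 0.25 (adjusted p = 0.361). Dtx1, a target gene of Notch signalling, had log2 levels of 4.31, 3.95 and 4.57 in the arrays labelled spleen and 7.42, 7.71 and 6.71 in the arrays labelled lymph node. Dll1 encodes a Notch ligand and lay the other way, with 6.11, 5.53 and 6.99 in the arrays labelled spleen against 4.51, 3.74 and 4.54 in the arrays labelled lymph node (1.94 ± 0.38, SE; limma adjusted p = 0.0402). Among 7 other junctional and endothelial adhesion genes Pecam1 was lower (-0.99 ± 0.18) and Cdh5 higher (2.16 ± 0.40), each at a limma adjusted p of 0.0343, and the median was -0.087. Pecam1 encodes CD31 and Cdh5 the endothelial cadherin, so this list also holds markers of endothelial cells.

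Transcription factors of the cDC2 lineage had 0 of 10 members past the threshold in either direction, with 1 higher and 3 lower at an unadjusted limma p under 0.05 and a median of -0.23. Spi1, the myeloid factor PU.1, came closest, with log2 levels of 5.95, 6.82 and 6.60 in the arrays labelled spleen and 7.85, 8.28 and 7.35 in the arrays labelled lymph node. Its difference was -1.37 ± 0.30 (SE; limma adjusted p = 0.0549). Ikzf1, the haematopoietic factor Ikaros, differed by -1.05 ± 0.25 (adjusted p = 0.0660). Of 10 other cDC2 genes 1 was lower and 0 higher, with a median of -0.24. That gene was Cd300a, an inhibitory receptor of myeloid cells (-1.19 ± 0.18, SE; limma adjusted p = 0.0201).

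Over all the lists built around the 8 genes, 7 genes passed with all arrays, namely Dtx1, Dll1, Itgax, Pecam1, Cdh5, Cd209b and Cd300a. Dtx1 also passed with any 1 array left out. The other 6 lost the call without lymph node array 1, without lymph node array 2 and without spleen array 1, and all of them but Cd300a also without lymph node array 3. Pecam1 lost it without spleen array 2 too (adjusted p = 0.0575), and Cd209b without spleen array 3 (adjusted p = 0.0675).

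**Figure D4:**
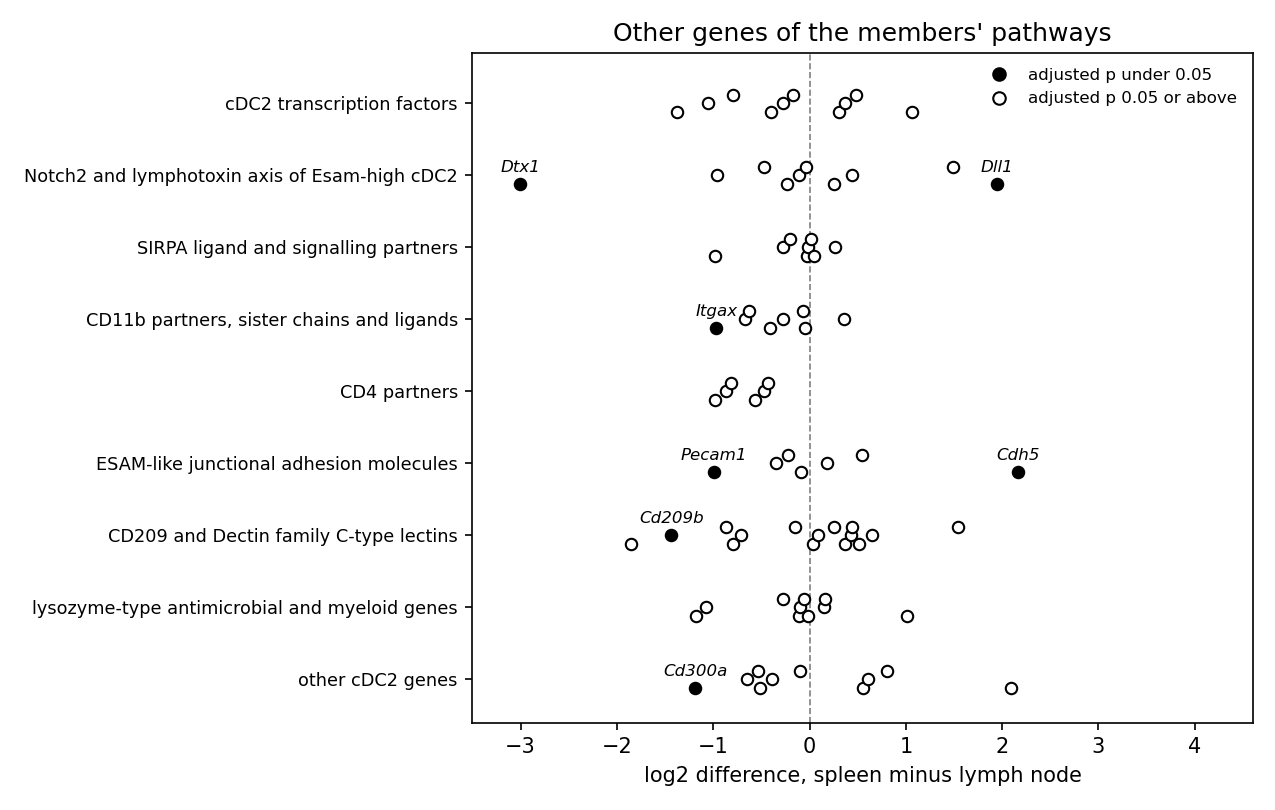
The x axis is the log2 difference in intensity, spleen minus lymph node as labelled, each point is 1 gene, each row is a list of genes around the members, and points are shifted vertically only for legibility. Filled points have a limma adjusted p under 0.05. Dtx1 at -3.00 lies farthest left and Cdh5 at 2.16 farthest right.

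Of the lectin genes, Cd209a encodes the mouse homologue of DC-SIGN and is a marker of cDC2 and monocyte-derived DCs. It had 280.2, 430.8 and 394.2 units in the arrays labelled spleen and 650.1, 653.3 and 529.3 in the arrays labelled lymph node. The groups did not overlap, and the difference was -0.75 ± 0.21 (SE, 95% interval -1.23 to -0.26; limma adjusted p = 0.102). The interval lies wholly below 0, so missing the threshold over all genes does not show an equal level.

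Clec10a, the galactose-binding lectin MGL1, lay in the other direction. It had 116.9, 198.9 and 280.6 units in the arrays labelled spleen and 26.6, 20 and 48.8 in the arrays labelled lymph node. Every spleen array was above every lymph node array, and each group spread about as widely on the log2 scale, at 7.55 ± 0.64 in the arrays labelled spleen against 4.89 ± 0.66 in the arrays labelled lymph node (SD, n = 3 each). The difference was 2.66 ± 0.41 (SE, 95% interval 1.72 to 3.60; limma adjusted p = 0.0196), or 6.31-fold. With 16 added to each value before log2 it was 2.14 (limma adjusted p = 0.0454). Like Sirpa, Clec10a lost the call without lymph node array 1 (2.58, adjusted p = 0.102) or lymph node array 2 (2.38, adjusted p = 0.0908).

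The genes closest to Clec10a in pattern over the 6 arrays were Sdc4, Zdhhc14 and Ccr9, at root mean square distances of 0.362, 0.414 and 0.431 log2 units, wider than those of the nearest genes to Sirpa. Sdc4 encodes the proteoglycan syndecan-4, and Ccr9 is 1 of the plasmacytoid DC markers above. Ccr9 had log2 levels of 8.62, 8.20 and 9.82 in the arrays labelled spleen and 5.69, 5.42 and 7.17 in the arrays labelled lymph node. In both genes array 3 was the highest of its group. Of 6 markers of Langerhans cells and skin-derived DCs 3 were also higher in the arrays labelled spleen (Aldh1a2, Cdh1 and Cldn1) and 0 lower, with summed intensities of 823.2 to 1123.4 in the arrays labelled spleen against 257.6 to 407 in the arrays labelled lymph node. Their defining gene Cd207, which encodes langerin, differed by 0.67 ± 0.46 (SE; limma adjusted p = 0.498). Epcam, an epithelial adhesion gene of Langerhans cells, differed by -0.41 ± 0.25 (adjusted p = 0.426), and Itgae by 1.18 ± 0.46 (adjusted p = 0.218). The part of these cells in the Clec10a difference was not tested.

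Mgl2 lies beside Clec10a on mouse chromosome 11 and encodes the related lectin CD301b. It had 5.1, 25.2 and 17.1 units in the arrays labelled spleen and 5.5, 4.4 and 6.6 in the arrays labelled lymph node, where the lowest value of any probe set was 2.1. Spleen arrays 2 and 3 stood above all lymph node arrays, and spleen array 1 lay among them. The difference was 1.26 ± 0.53 (SE, 95% interval 0.025 to 2.50; limma adjusted p = 0.253). Without spleen array 1 it was 1.94 and passed (adjusted p = 0.0319). Because the lymph node values lie near the bottom of the scale, the size of the Mgl2 difference is uncertain.

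No statement is made on whether Clec10a and Mgl2 differed by unequal amounts. The exact permutation test set for the gap between them cannot go below p = 0.1 with 3 arrays against 3, and Mgl2 lay near the bottom of the scale in 4 of the 6 arrays, so the size of the gap is not given.

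Of 15 other measured lectins, mostly of the CD209 and Dectin families, in the arrays labelled spleen 1 was lower and 0 were higher, with a median of 0.085. The lower gene was Cd209b, the SIGN-R1 lectin of marginal zone macrophages in the spleen (-1.44 ± 0.28, SE; limma adjusted p = 0.0402). Its log2 levels were 2.83, 3.99 and 3.41 in the arrays labelled spleen and 4.99, 4.74 and 4.81 in the arrays labelled lymph node. All lay below the median gene level of 5.46, so the size of the Cd209b difference is uncertain. Marco, a macrophage marker listed below, lay the other way, at 2.09 ± 0.37 (limma adjusted p = 0.0310).

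Lyz2 encodes the lysozyme of monocytes, macrophages and neutrophils and is also expressed by cDC2. Upstream windows are shown for Lyz2, for its near copy Lyz1 beside it on chromosome 10, and for Itgam, another of the 8 genes for which a window was at hand. They are the 250 bases before the RefSeq transcript start in GRCm38.p6, written 5′ to 3′ on the gene's own strand, for Lyz2 at chr10:117282273-117282522 (minus strand), Lyz1 at chr10:117292869-117293118 (minus strand) and Itgam at chr7:128062390-128062639 (plus strand). Capitals mark the letters AGGAAG on either strand, which reads CTTCCT on the opposite one. It is a longer form of the core GGAA bound by PU.1 and other ETS factors. Other GGAA letters in the windows are neither marked nor counted.
Lyz2: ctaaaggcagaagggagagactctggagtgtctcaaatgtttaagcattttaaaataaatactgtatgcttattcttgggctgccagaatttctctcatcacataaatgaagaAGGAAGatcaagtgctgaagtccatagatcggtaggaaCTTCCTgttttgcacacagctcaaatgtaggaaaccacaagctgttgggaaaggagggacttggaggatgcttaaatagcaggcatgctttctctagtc
Lyz1: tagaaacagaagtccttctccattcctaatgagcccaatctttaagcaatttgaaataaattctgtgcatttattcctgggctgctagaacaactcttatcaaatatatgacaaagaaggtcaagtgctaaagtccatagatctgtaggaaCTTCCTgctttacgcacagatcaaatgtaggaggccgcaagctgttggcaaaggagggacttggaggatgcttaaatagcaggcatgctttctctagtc
Itgam: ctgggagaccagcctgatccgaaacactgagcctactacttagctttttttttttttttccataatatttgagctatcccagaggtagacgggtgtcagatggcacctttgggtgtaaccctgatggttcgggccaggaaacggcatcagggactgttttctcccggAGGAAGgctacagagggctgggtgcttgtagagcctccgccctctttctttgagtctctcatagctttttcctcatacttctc
Lyz2 holds 2 matches, Lyz1 1 and Itgam 1, where 29.5% of all 32851 such windows hold at least 1. Over the whole window Lyz2 and Lyz1 have 205 identical bases in 260 aligned columns, and in the last 60 bases before the start they share 59. Cd209a and Mgl2 also had a window, with 0 matches and 1 match. A match describes letters in the window and not a bound site.

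Lyz2 had 2075.3, 2618.9 and 1510.6 units in the arrays labelled spleen and 785.7, 905.2 and 1520.5 in the arrays labelled lymph node. Array 3 of each label met at nearly the same level, and the other arrays lay apart. The difference was 0.97 ± 0.30 (SE, 95% interval 0.28 to 1.67; limma adjusted p = 0.127).

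The brightest Lyz1 probe set gave a similar difference of 1.01 ± 0.32 (SE; limma adjusted p = 0.138), and its log2 levels of 11.29, 11.48 and 10.73 in the arrays labelled spleen and 9.71, 9.95 and 10.81 in the arrays labelled lymph node ran alongside those of Lyz2. That probe set is of a design whose probes can match other transcripts. The only Lyz1 probe set without that mark stayed between 2.61 and 3.51 in the arrays labelled spleen and 2.38 and 2.66 in the arrays labelled lymph node. The Lyz2 probe set has no such mark. It is the only probe set of Lyz2, so leaving out marked probe sets could not change its difference of 0.97. The levels of the bright Lyz1 probe sets are therefore uncertain between the copies, and whether Lyz2's own probes also match Lyz1 was not tested.

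Genes of antimicrobial defence and myeloid granules had 0 of 10 members past the threshold in either direction (1 higher and 2 lower at an unadjusted limma p under 0.05), with a median of -0.078. Cyba and Ncf4, subunits of the phagocyte NADPH oxidase, differed by -1.08 ± 0.24 (SE; limma adjusted p = 0.0565) and -1.18 ± 0.33 (adjusted p = 0.102). Of 8 measured neutrophil markers 1 was lower in the arrays labelled spleen, Camp, and 0 higher, with a median of -0.77. At an unadjusted limma p under 0.05 there were 4 lower and 0 higher. Camp had low log2 levels, from 2.83 to 4.99. S100a9 (-3.44 ± 0.76, SE; limma adjusted p = 0.0536) and S100a8 (-2.63 ± 0.59, adjusted p = 0.0569) differed more. Summed intensities of the neutrophil markers were 71.1 to 138.8 in the arrays labelled spleen against 182.7 to 727.5 in the arrays labelled lymph node. Macrophage markers had 1 of 12 higher, the scavenger receptor gene Marco, and 0 lower, with a median of -0.44. Of the 12 differences 3 were positive and 9 negative. Their sums were 342.9 to 517.8 in the arrays labelled spleen and 372.7 to 885.7 in the arrays labelled lymph node. For monocyte markers 0 of 9 passed in either direction (1 higher and 1 lower at an unadjusted limma p under 0.05). Their median was -0.46, with 2 differences positive and 7 negative. Their sums were 2199 to 2698 in the arrays labelled spleen and 3128 to 3735 in the arrays labelled lymph node. Ccr2, a chemokine receptor of monocytes and some cDC2, had the smallest adjusted p among the monocyte markers, at 2.10 ± 0.51 (SE; limma adjusted p = 0.0681), followed by the integrin gene Itga4 at -0.51 ± 0.16 (adjusted p = 0.135). NK cell markers had 0 of 7 past the threshold (1 higher and 0 lower unadjusted in limma), led by the receptor gene Klrk1 (1.28 ± 0.41, adjusted p = 0.138) and the transcription factor gene Eomes (1.89 ± 0.92, adjusted p = 0.321), and B cell markers 1 of 7 lower, Cr2, and 0 higher. The part of these cells in the Lyz2 level was not tested.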

How the data were processed

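Total RNA of sorted DCs was amplified and hybridised to Affymetrix arrays, per the labels' protocols. The deposited values are probe set intensity on a linear scale. RMA and limma are named in the submitters' processing notes, and their versions and any further scaling are not given in the sources used here. Since RMA works in log2, the scale was changed before deposit. There were 22690 probe sets, 64 of them controls. By the array annotation 20393 had 1 symbol, 691 several and 1606 none, and 20364 of the first were matched by Entrez identifier to the RefSeq table of GRCm38.p6, which changed 0 symbols. Sirpa and Cd4 had more than 1 probe set.

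For each of 12394 genes the probe set with the highest mean log2 value over 6 arrays was kept. No detection calls were used and no level filter was applied. Groups came from the sample titles. The log2 values were compared with lmFit and eBayes of limma 3.58.1 (R 4.3.3), two-sided, and p-values were adjusted over all genes by Benjamini-Hochberg, with a threshold of 0.05. The functions were tested on simulated data. The only other test was an exact permutation test. Gene lists got no set test. The named genes were the 8 members, the genes nearest in pattern to the members with the largest difference in each direction, and in each list those with the smallest adjusted p (up to 4 past the threshold, otherwise 2). Some others with a stated value were added after their values were seen. Examples are Itgb2, Tln1, Notch2, Ltbr, Cd207, Epcam, Itgae, Cd3e, Lyz1, S100a8, S100a9 and Ccr7. The members and lists were chosen with earlier results of these data known. Sequences came from RefSeq promoter windows of GRCm38.p6, which held 4 of the 8 genes. The number of arrays limits the precision. Alternatives changed the normalization, the filter, an offset of 16, the variance moderation, a replicate block, the probe sets, a control covariate and the arrays used.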

Additional observations from a re-analysis of the deposited data

How the results depend on the processing

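Sirpa stayed lower and Clec10a higher in the arrays labelled spleen under all 15 alternatives run. Some of these could change only the p-value. The filter, the variance moderation, the replicate block and leaving out cross-hybridising probe sets kept the differences at -1.194 and 2.658. Averaging all probe sets could not change Clec10a, which has a single one. Sirpa and Clec10a both passed in 8 of 9 alternatives that kept all arrays and in 4 of 6 that left out 1 array. The exception with all arrays was the poly-A control level as a covariate, which leaves 3 residual degrees of freedom and separates the groups. With it Sirpa was -1.08 (adjusted p = 0.850) and Clec10a 2.25 (0.854). The genes not past the threshold moved more, Cd209a to -0.20, Esam to -0.33, Cd4 to -1.09, Itgam to 0.77 and Mgl2 to 2.57, while Lyz2 was 1.00. With the covariate, 0 of the 8 genes and 0 genes in either direction passed in limma (1 of the 8, and 380 higher and 343 lower, at an unadjusted p under 0.05). With 1 array left out, the difference lay between -1.27 and -1.13 for Sirpa, -0.13 and 0.29 for Itgam, -0.93 and -0.33 for Cd4, -0.83 and -0.44 for Esam, -0.87 and -0.56 for Cd209a, 2.36 and 3.02 for Clec10a, 0.78 and 1.94 for Mgl2 and 0.78 and 1.26 for Lyz2. The number of the 8 genes past the threshold was 0 to 3, and genes past the threshold numbered 33 to 296 higher and 14 to 179 lower. The lowest of these counts came without lymph node array 2 (33 higher, 14 lower) and without lymph node array 1 (41 higher, 15 lower), where 5 and 4 of the 8 genes had an unadjusted p under 0.05 in limma. Over all genes such a p was reached by 818 higher and 800 lower without lymph node array 2. Without lymph node array 1 it was reached by 808 higher and 798 lower. Without spleen array 1 there were 90 higher and 40 lower, and without lymph node array 3 there were 104 lower. Itgam turned to -0.13 without spleen array 2. The filter at the median level tested fewer genes and gave 267 lower, and with it Itgam and Mgl2 had no value. With log2 of the value plus 16, Mgl2 was 0.51 and Clec10a 2.14 (limma adjusted p = 0.0454).

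Whether the replicate numbers pair the arrays is not settled by the labels or by these values. Same-numbered arrays deviated together with correlations across genes of 0.022, 0.242 and 0.158. The highest correlation with a differently numbered array was 0.085 for spleen array 1, 0.13 for spleen array 2 and -0.084 for spleen array 3. Spleen array 1 thus deviated more with a differently numbered array, and spleen arrays 2 and 3 with the same-numbered one. With the replicate block the count was 322 higher and 196 lower, Sirpa had an adjusted p of 0.0221 and Clec10a 0.0089, and the same number of the 8 genes passed, 2.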
